A study of Mus musculus with 8 samples.

Results

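Arginine is made, broken down and signalled through by a small set of enzymes, and 9 of their genes were followed here in intestinal crypts: Ddah1, Ddah2, Cps1, Otc, Oat, Ass1, Asl, Arg2 and Gatm. They were taken by gene name from tables of 34745 genes, and all 9 were found under their current symbols. The genes were picked with their difference between the groups of this study already known, so that difference is described for them and not tested. The libraries came from crypts, the glands of the gut epithelium, of wild-type C57BL/6 mice on day 5. In 4 libraries the mice had received dextran sulfate sodium (DSS), which damages the intestinal epithelium and causes colitis. In the other 4 they had received DSS and CA (DSS+CA), where CA stands for the primary bile acid cholic acid, as the title of the series spells it out. DSS was thus common to both groups, and no library from uninjured mice was analysed here. The labels name neither the gut segment, nor dose and route, nor whether each library is a separate animal, so the spread between libraries may be technical.

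The epithelium of the small intestine makes citrulline. Carbamoyl phosphate and ornithine are joined in its mitochondria, and the citrulline released is turned into arginine elsewhere, mainly in the kidney. Arginine is also the substrate of arginases, of the nitric oxide synthases and of creatine synthesis. Arginine residues methylated in proteins are released as asymmetric dimethylarginine (ADMA), an inhibitor of the nitric oxide synthases, and the dimethylarginine dimethylaminohydrolases break ADMA down to citrulline and dimethylamine.

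Total counts lay between 13334012 and 17973196 per library. The 8 epithelial markers summed to 10397 to 11835 CPM (counts scaled to a common library size) in DSS and 10815 to 11485 CPM in DSS+CA, and the 6 stem cell markers, all with counts, to 445 to 1635 and 294 to 735 CPM. Absorptive genes of the small intestine were abundant in every library, at a sum of 30932 CPM or more, and 8 colon markers summed to 443 to 1107 CPM. Of these Muc3 and Slc26a3 made up most, at means of 507 and 145 CPM in DSS and 388 and 238 CPM in DSS+CA. Car1 and Prdx6b were at 0 throughout, Hoxb13 had 2 counts in DSS and 0 in DSS+CA, and Aqp8 means were 3.40 and 0.25 CPM. The labels do not name the gut segment, but the absorptive genes of the small intestine far outweighed the colon list in every library. DSS 2, DSS 3 and DSS+CA 3 had the shortest counted genes, with a mean length of 1423 to 1448 bases against 1719 to 2412 bases in the other 5. Both this length and the mitochondrially encoded share of counts differed in part with the groups, the share lying between 16.2% and 27.7% in DSS and between 9.72% and 20.5% in DSS+CA, where DSS+CA 3 was the highest. Markers of T and NK cells, all 12 with counts, summed to 660 to 2095 CPM in DSS and 130 to 1126 CPM in DSS+CA, those of macrophages and neutrophils, 10 of 10 with counts, to 18.8 to 25.8 and 6.96 to 17.7 CPM, and those of B and plasma cells, 8 of 8, to 31.5 to 71.5 and 7.55 to 22.5 CPM. Of the crypt's secretory cells, Paneth markers, 8 of 8 with counts, summed to 6573 to 39064 and 4920 to 17728 CPM, and goblet markers, 7 of 7, to 8069 to 13211 and 3733 to 8901 CPM. The part of these differences in the values below was not tested, and in whole crypts fewer cells of a type and less RNA per cell cannot be told apart.

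Among the 9 genes, Ddah1 stood apart, at 4.89-fold higher levels in DSS+CA. Oat was 1.32-fold lower with groups that did not overlap, while Cps1, Otc, Asl and Arg2 had overlapping groups. Ddah2, Ass1 and Gatm were near the limit of detection. With edgeR's quasi-likelihood test over 9913 genes, 0 of the 6 genes that passed the expression filter had an adjusted p below 0.05, against 0.131% of all tested genes. Ddah1 lay just above that threshold (adjusted p = 0.0502 in edgeR). At an unadjusted p below 0.05 there was 1, which was Ddah1, against 7.82% of all tested genes. DESeq2, which called 2.22% of all tested genes, and limma-voom, which called 0.343%, each called that 1. Groups that did not overlap were found in 2 of the 6, 1 higher and 1 lower in DSS+CA, where 6.05% of all tested genes had such groups, 3.24% higher and 2.81% lower. Nothing is read from these counts, since the genes were chosen on this contrast. The median log2 fold change (DSS+CA against DSS) over the 6 was 0.17, and over all tested genes it was 0.02.

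**Figure D1:**
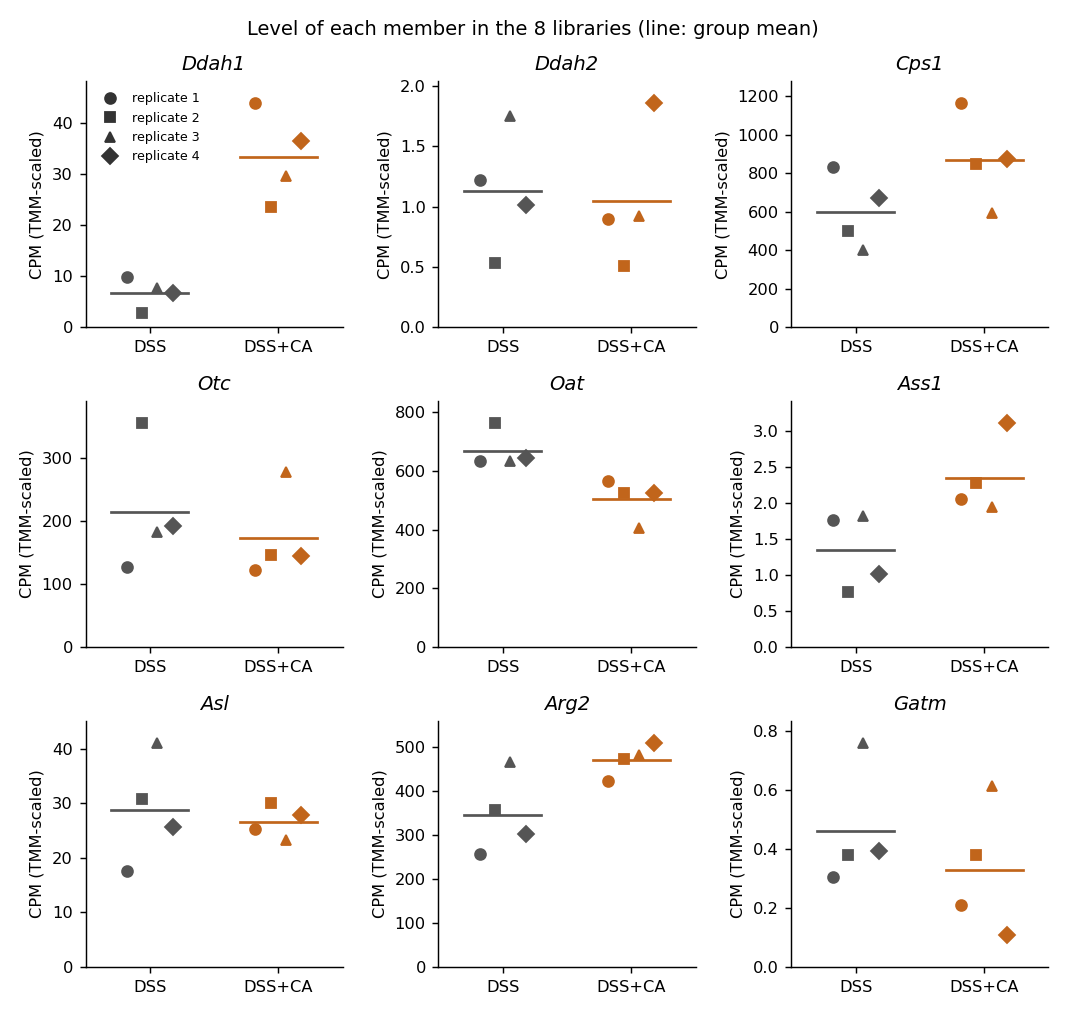
Level of the 9 genes in each library, in CPM on an axis that starts at 0, with DSS in grey, DSS+CA in orange, a marker shape per replicate number and a line at the group mean. For Ddah1 the 4 DSS+CA libraries lie between 23.5 and 43.8 CPM, all above the highest DSS library at 9.94 CPM, and for Oat all 4 lie below the DSS libraries.

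Ddah1 encodes one of the ADMA-degrading hydrolases. The gene lies on chromosome 3 from 145758675 to 145894277 (GRCm38, plus strand, ENSMUSG00000028194). It stood at 9.94, 2.90, 7.76 and 6.65 CPM in DSS 1 to 4 and at 43.8, 23.5, 29.7 and 36.5 CPM in DSS+CA 1 to 4. Every DSS+CA library was above every DSS library, with more than a doubling between the highest of the one and the lowest of the other, and DSS 2 was the lowest of all. Group means were 6.81 ± 2.94 and 33.4 ± 8.75 CPM (SD, n = 4 each), and the fitted log2 fold change was 2.29 (SE 0.394). Only 6 of the 9913 tested genes had a higher one. The gene passed the filter, a deposited FPKM of at least 1 in at least 4 libraries, with 3 DSS and all 4 DSS+CA libraries, so the DSS libraries alone would not have carried it through. The value moved little with the libraries used, from 2.04 to 2.53 with each left out in turn and at 2.03 without DSS 2, DSS 3 and DSS+CA 3.

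Ddah2, on chromosome 17 from 35059035 to 35062095 (plus strand, ENSMUSG00000007039), encodes the other hydrolase, which is common in vascular and immune cells. It had 68 counts in the DSS libraries together and 68 in the DSS+CA libraries. Levels were 1.22, 0.53, 1.75 and 1.01 CPM in DSS 1 to 4 and 0.90, 0.51, 0.92 and 1.85 CPM in DSS+CA 1 to 4, with the groups fully intermixed. It did not pass the filter in any library, and the fit without a filter gave a log2 fold change of -0.04 (SE 0.603). Endothelial markers, all 7 with some counts, summed to 1.35 to 3.66 CPM in DSS and to 0.51 to 1.32 CPM in DSS+CA, lower in the latter without overlap but by a narrow gap. Pecam1 had the most counts (68 in DSS and 30 in DSS+CA). Cdh5, Vwf, Emcn and Plvap also had fewer in DSS+CA, but Kdr (3 and 3) and Tek (12 and 13) did not. The part of these markers in the Ddah2 values was not tested.

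Within a library, the ratio of Ddah1 to Ddah2 per gene length does not depend on scaling. It was 3.18, 2.12, 1.73 and 2.56 in DSS 1 to 4 and 19.1, 18.2, 12.6 and 7.68 in DSS+CA 1 to 4. Ddah1 was thus the more abundant of the pair in all 8 libraries, and by a wider margin in each DSS+CA library, though the low Ddah2 counts, 7 to 34 per library, make each ratio imprecise.

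The sequences before the annotated starts of Ddah1, of its paralogue Ddah2 and of Oat are shown because Ddah1 and Oat were the tested genes whose groups separated, in opposite directions, and Ddah2 shares the enzymatic role of Ddah1 but had intermixed groups. They are RefSeq promoter windows (GRCm38.p6), read 5′ to 3′ on the gene's own strand and ended before the annotated gene start, at chr3:145758442-145758674 (plus strand), chr17:35058785-35059034 (plus strand) and chr7:132576399-132576648 (minus strand). Capitals mark AGTTCA or its reverse complement.
Ddah1: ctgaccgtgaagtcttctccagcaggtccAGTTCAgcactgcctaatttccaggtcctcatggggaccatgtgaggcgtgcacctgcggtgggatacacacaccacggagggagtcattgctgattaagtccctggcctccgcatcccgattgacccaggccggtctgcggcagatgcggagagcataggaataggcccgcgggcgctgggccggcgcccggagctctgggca
Ddah2: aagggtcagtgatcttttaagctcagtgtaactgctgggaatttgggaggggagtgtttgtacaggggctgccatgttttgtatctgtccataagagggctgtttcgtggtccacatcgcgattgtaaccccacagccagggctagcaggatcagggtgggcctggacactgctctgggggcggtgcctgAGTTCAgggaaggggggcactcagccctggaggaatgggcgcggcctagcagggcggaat
Oat: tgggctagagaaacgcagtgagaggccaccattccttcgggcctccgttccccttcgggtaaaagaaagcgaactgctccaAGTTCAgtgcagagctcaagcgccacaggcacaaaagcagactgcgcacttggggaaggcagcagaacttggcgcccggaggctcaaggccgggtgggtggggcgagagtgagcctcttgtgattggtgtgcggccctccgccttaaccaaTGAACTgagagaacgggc
Both strands were searched for AGGTCA and AGTTCA, hexamers that nuclear receptors bind, for the inverted repeat bound by the bile acid receptor FXR (AGGTCA, any base, TGACCT), for the direct repeat bound by PPAR receptors (AGGTCA, any base, AGGTCA), and for TGATGNAA, an element bound by ATF4. Each repeat contains the hexamer, so a match to it also counts as one to AGGTCA. RefSeq windows were found for 6 of the 9 genes. AGTTCA matched in Ddah1, Ddah2 and Otc at 1 place and in Oat at 2, AGGTCA matched in Gatm, and Ass1 held no match to either. The repeats and TGATGNAA matched in none of the 6. Of 32851 promoter windows of 250 bases, 11.8% held AGTTCA, 14.0% AGGTCA, 3.45% TGATGNAA, 0.0335% the direct repeat and 0.00609% the inverted repeat. The windows of Ddah1, Ass1 and Gatm were shorter than these, at 233, 187 and 224 bases, because they ended before the annotated start. The hexamer was thus present in the gene that was higher, in the paralogue with intermixed groups, and in the gene that was lower.

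Citrulline synthesis is carried by Cps1, Otc and Oat. Cps1 encodes the mitochondrial carbamoyl phosphate synthetase, the entry step, and lies on chromosome 1 from 67123026 to 67231259 (plus strand, ENSMUSG00000025991). It stood at 834, 499, 400 and 672 CPM in DSS 1 to 4 and at 1163, 851, 595 and 876 CPM in DSS+CA 1 to 4. The groups overlapped, since DSS+CA 3 lay below DSS 1 and DSS 4. The log2 fold change was 0.53 (SE 0.349), from 601 ± 191 to 871 ± 232 CPM (SD, n = 4 each), and it was 0.32 without DSS 2, DSS 3 and DSS+CA 3.

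Within each group the order of the libraries by Cps1 was the reverse of their order by absorptive enterocyte markers. The 10 markers summed to 30932, 88873, 109205 and 58139 CPM in DSS 1 to 4 and to 34503, 48962, 119255 and 47812 CPM in DSS+CA 1 to 4. Apoa4, Apoa1 and Fabp2 made up most of these sums, at means of 19333, 18887 and 16138 CPM in DSS. Their means were 16382, 13272 and 15984 CPM in DSS+CA, so the order need not be that of enterocyte number. Cps1 was thus highest in DSS 1 and DSS+CA 1, where these markers were lowest, and lowest in DSS 3 and DSS+CA 3, where they were highest. DSS 2, DSS 3 and DSS+CA 3, the libraries of shortest counted genes, also held the lowest Cps1 levels of their groups. DSS 1 and DSS+CA 1, with the highest, had the longest counted genes of their groups, at means of 2234 and 2412 bases. The part of the markers or of this length in the Cps1 levels was not tested.

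Otc encodes ornithine transcarbamylase, which joins ornithine and carbamoyl phosphate to citrulline, and lies on chromosome X from 10252305 to 10321024 (plus strand, ENSMUSG00000031173). Its levels were 128, 355, 183 and 192 CPM in DSS 1 to 4 and 122, 146, 278 and 144 CPM in DSS+CA 1 to 4. The groups overlapped throughout, and 1 library stood high in each, DSS 2 and DSS+CA 3. The same libraries had the largest mitochondrially encoded share of counts in their groups, at 27.7% and 20.5%; its part in the Otc values was not tested. The log2 fold change was -0.31 (SE 0.389) and turned to 0.04 without DSS 2.

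Cps1 and Otc act in sequence but did not keep a fixed ratio. Per gene length, Cps1 over Otc was 5.16, 1.11, 1.73 and 2.76 in DSS 1 to 4 and 7.54, 4.60, 1.69 and 4.82 in DSS+CA 1 to 4. It was below 2 only in DSS 2, DSS 3 and DSS+CA 3, the libraries of shortest counted genes, and the groups overlapped. The implied lengths of the 2 genes were 5555 and 4388 bases.

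Oat encodes ornithine aminotransferase, which links ornithine to glutamate and proline, and lies on chromosome 7 from 132557475 to 132576398 (minus strand, ENSMUSG00000030934). It stood at 634, 763, 635 and 646 CPM in DSS 1 to 4 and at 568, 524, 407 and 526 CPM in DSS+CA 1 to 4. All DSS+CA libraries were below all DSS libraries, with DSS+CA 1 the nearest. The log2 fold change was -0.40 (SE 0.279), from 669 ± 62.6 to 506 ± 69.1 CPM (SD, n = 4 each). It stayed between -0.47 and -0.28 in every alternative run. The coefficients of variation, 9.36% in DSS and 13.6% in DSS+CA, were the smallest of the 9 genes in DSS and below those of Cps1, Otc and Ddah1 in DSS+CA.

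**Figure D2:**
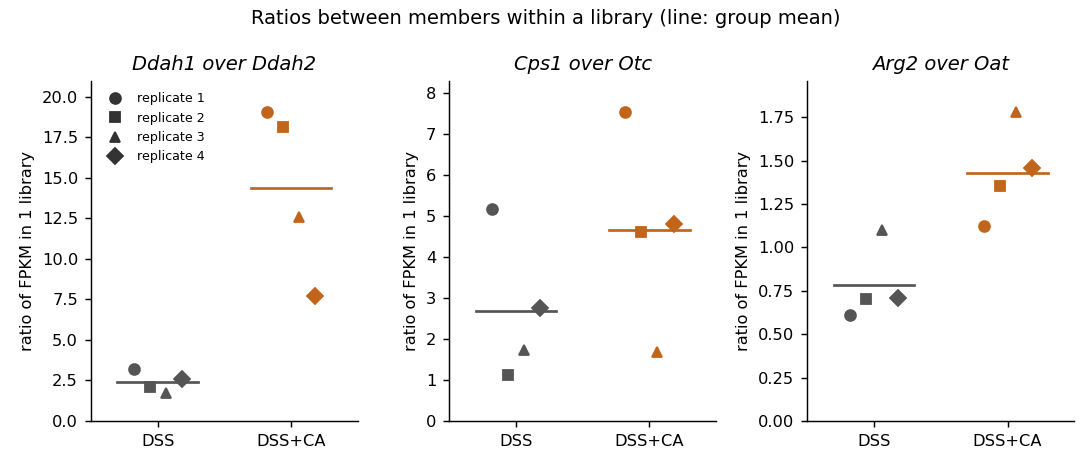
Ratio of deposited FPKM between pairs of genes within a library, for Ddah1 over Ddah2, Cps1 over Otc and Arg2 over Oat, with a line at the group mean and a marker shape per replicate number. The Ddah1 over Ddah2 ratio is at most 3.18 in DSS and at least 7.68 in DSS+CA, the Cps1 over Otc ratios of the groups overlap, and the Arg2 over Oat ratio reaches 1.10 in DSS and starts at 1.12 in DSS+CA.

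Arginine is made from citrulline by argininosuccinate synthase (Ass1) and argininosuccinate lyase (Asl), which in the adult small intestine are known to be low relative to citrulline synthesis. Ass1, on chromosome 2 from 31470207 to 31520672 (plus strand, ENSMUSG00000076441), stood at 1.77, 0.76, 1.83 and 1.01 CPM in DSS 1 to 4 and at 2.06, 2.28, 1.94 and 3.11 CPM in DSS+CA 1 to 4. These rest on 81 and 151 counts in all. The groups did not overlap, but by a narrow gap between DSS 3 and DSS+CA 3, and only 1 library reached the filter's FPKM of 1. The fit without a filter gave a log2 fold change of 0.87 (SE 0.496).

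Asl, on chromosome 5 from 130011258 to 130029247 (minus strand, ENSMUSG00000025533), was at 17.6, 30.9, 41.1 and 25.6 CPM in DSS 1 to 4 and at 25.4, 30.1, 23.3 and 27.9 CPM in DSS+CA 1 to 4. The DSS+CA libraries lay inside the DSS range. The log2 fold change was -0.11 (SE 0.303) and had no stable sign, at 0.11 without DSS 3 and 0.34 without DSS 2, DSS 3 and DSS+CA 3.

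Arg2 encodes the mitochondrial arginase, which splits arginine into urea and ornithine and so supplies Oat and Otc with substrate. It lies on chromosome 12 from 79130777 to 79156301 (plus strand, ENSMUSG00000021125). Levels were 257, 357, 464 and 303 CPM in DSS 1 to 4 and 422, 471, 481 and 508 CPM in DSS+CA 1 to 4. The DSS+CA libraries were close together and 3 of them lay above all DSS libraries, while DSS 3 lay above DSS+CA 1. The log2 fold change was 0.45 (SE 0.293), from 345 ± 89.2 to 470 ± 35.9 CPM (SD, n = 4 each), and it was 0.71 without DSS 2, DSS 3 and DSS+CA 3. Vti1b, which lies on the other strand and overlaps the gene, had 13959 counts in all against 49795 for Arg2. How strand was handled in the counting is not given in the sources used here, so reads where they overlap cannot be assigned with certainty.

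Arg2 and Oat exchanged their order between the groups. Per gene length, Arg2 over Oat was 0.61, 0.71, 1.10 and 0.71 in DSS 1 to 4 and 1.12, 1.35, 1.78 and 1.46 in DSS+CA 1 to 4. Oat was the more abundant in 3 of 4 DSS libraries and Arg2 in all 4 DSS+CA libraries, with DSS 3 and DSS+CA 1 almost level.

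Gatm, the amidinotransferase that starts creatine synthesis from arginine, lies on chromosome 2 from 122594467 to 122611303 (minus strand, ENSMUSG00000027199). It had 27 counts in the DSS libraries together and 18 in the DSS+CA libraries, 2 to 10 per library. A difference was not detectable at this depth (log2 fold change -0.47, SE 0.843, in the fit without a filter).

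**Figure D3:**
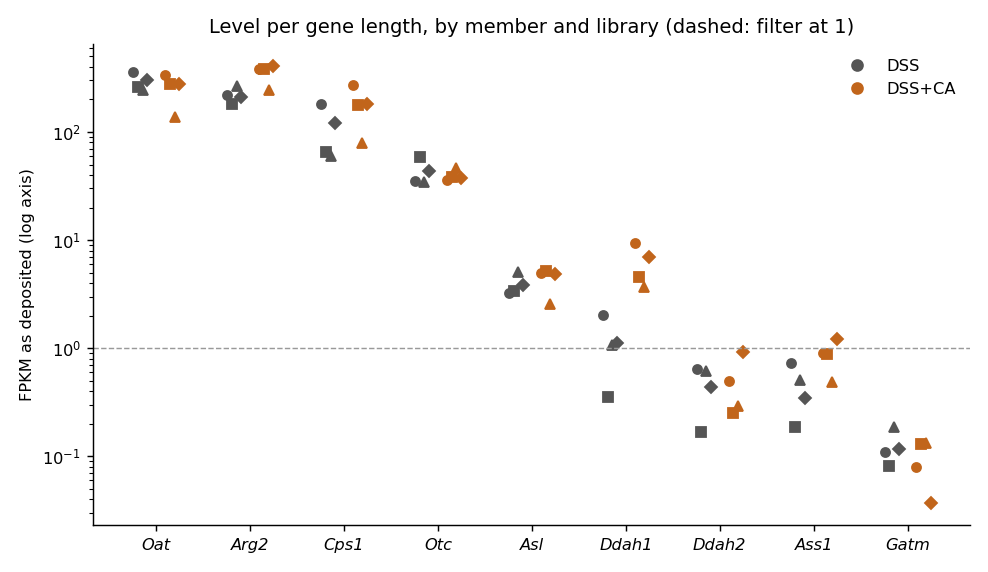
Deposited FPKM, a level per gene length, of the 9 genes in each library on a log axis, DSS in grey and DSS+CA in orange with a marker shape per replicate number, ordered by the DSS mean. Oat, Arg2, Cps1 and Otc lie above 30 FPKM in all 8 libraries. Asl lies between 2.57 and 5.21 FPKM, above the filter level of 1 (dashed) in all 8. Ddah1 lies between 0.36 and 9.47 FPKM, below that level only in DSS 2. Ddah2, Ass1 and Gatm lie below it except Ass1 in DSS+CA 4.

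Per gene length the 9 genes spanned more than 3 orders of magnitude. In DSS the order by mean deposited FPKM was Oat (290), Arg2 (220), Cps1 (107), Otc (43.1), Asl (3.89), Ddah1 (1.14), Ddah2 (0.47), Ass1 (0.44) and Gatm (0.12). Oat and Arg2, Arg2 and Cps1, Ddah1 and Ddah2, and Ddah2 and Ass1 had overlapping ranges, and the other neighbours did not. In DSS+CA the order was Arg2 (354), Oat (260), Cps1 (176), Otc (39.5), Ddah1 (6.18), Asl (4.38), Ass1 (0.87), Ddah2 (0.49) and Gatm (0.09). There the ranges of Arg2 and Oat, Oat and Cps1, Ddah1 and Asl, and Ass1 and Ddah2 overlapped. Ddah1 had thus moved past Asl, which it exceeded in 3 of 4 DSS+CA libraries and in no DSS library. Arg2 and Oat were above 98.2% and 98.1% of the tested genes in mean FPKM, Cps1 above 96.5% and Otc above 89.6%, whereas Asl was above 41.5% and Ddah1 above 37.5%. FPKM is relative to all counts of a library and was not rescaled, so these levels are compared within a library rather than between groups.

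**Figure D4:**
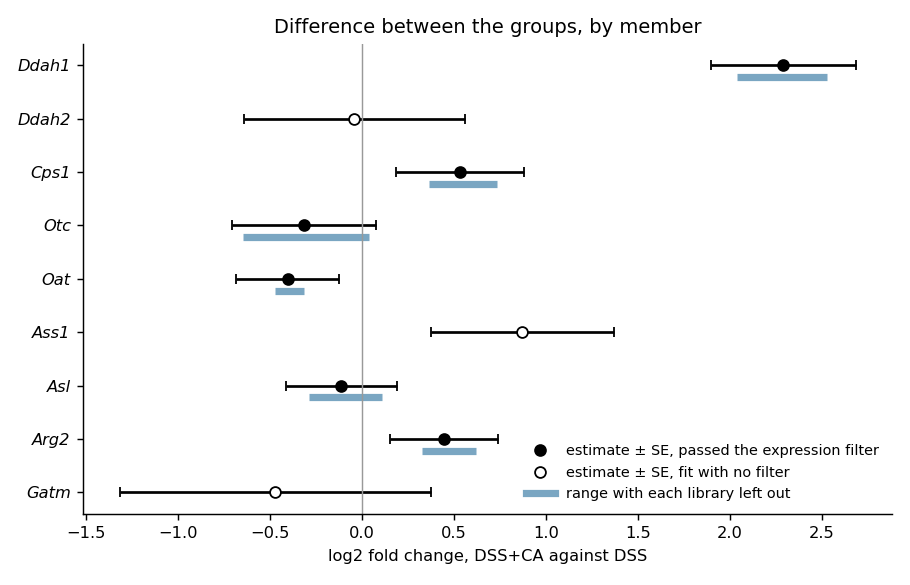
Log2 fold change of DSS+CA against DSS for the 9 genes, with bars of 1 SE, filled where the gene passed the expression filter and open where the value comes from the fit without one, and in blue the range with each library left out in turn. Ddah1 lies at 2.29 with a range of 2.04 to 2.53, and the ranges of Otc and Asl cross 0.

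Some other genes had a pattern over the 8 libraries similar to that of Ddah1. By the root mean square difference in log2 CPM, each gene centred on its own mean, the nearest were Mfsd7c (0.29), a membrane transporter of the major facilitator family, Mboat1 (0.31), an acyltransferase of membrane lipids, and Scd1 (0.35), the stearoyl-CoA desaturase. The median over all tested genes was 1.31, and a gene with the same level in all 8 libraries would lie at 1.24. These genes were taken as the nearest of all, so values below the median were set in advance. Their log2 fold changes were 2.27, 1.98 and 1.88. The nearest to Oat, the lowest of the tested 6, were Phyh (0.07), a peroxisomal hydroxylase of branched fatty acids, the kinase gene Clk3 (0.10) and Sdr42e1 (0.10), a short-chain dehydrogenase, against a median of 0.56. For Oat a gene with the same level in all 8 libraries would lie at 0.25.

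The wider pathway was read from a list of 60 other genes of arginine, ornithine, proline, polyamine, creatine and methylarginine metabolism and transport, 58 found by symbol and 2 by an older one (Prmt9 and Pycr3). Of these, 40 passed the filter, and with edgeR 0 were higher and 0 lower at an adjusted p below 0.05, against 0.0404% and 0.0908% of all tested genes. At an unadjusted p below 0.05 there were 3, namely Nos2, Slc25a12 and Slc7a1, a share close to the 7.82% of all tested genes. DESeq2 called 1 of the 40 and limma-voom 0. Log2 fold changes were above 0 in 28 and below 0 in 12, where 5142 of all 9913 tested genes lay above 0. The median was 0.18 against 0.02 over all tested genes. Without DSS 2, DSS 3 and DSS+CA 3, 5 were called higher and 1 lower, in a fit that called 655 genes, 6.61% of those tested, and set only 2 DSS against 3 DSS+CA libraries.

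Nos2, the inducible nitric oxide synthase, was the gene furthest from 0 among the 40, and its product is the kind of enzyme that ADMA inhibits. It stood at 133, 30.2, 28.8 and 92.6 CPM in DSS 1 to 4 and at 19.9, 11.8, 12.5 and 27.6 CPM in DSS+CA 1 to 4. The groups did not overlap, but DSS 2 and DSS 3 lay just above DSS+CA 4. The log2 fold change was -1.98 (SE 0.529, adjusted p = 0.182 in edgeR), and DESeq2 called it (adjusted p = 0.00638). Without DSS 2, DSS 3 and DSS+CA 3, edgeR gave -2.55 (adjusted p = 0.0145). That fit leaves out the lowest DSS libraries for Nos2, which by itself widens the difference. It set 2 DSS against 3 DSS+CA libraries and called 6.61% of all tested genes. Over the edgeR fits with each library left out the log2 fold change lay between -2.27 and -1.49. Nos1 and Nos3, the neuronal and endothelial synthases, had 0 counts in DSS, where a count of 0 leaves room for up to 3, and 1 and 2 counts in DSS+CA. Arg1, the cytosolic arginase, had 72 and 79 counts, with 1.26 ± 0.946 and 1.28 ± 0.159 CPM (SD, n = 4 each).

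Genes of protein arginine methylation lay above 0 in 6 of the 7 that were tested, with none called. ADMA comes from only part of this methylation, so the count is not one of ADMA makers. Prmt3 was at 9.15 to 10.6 CPM in DSS and 12.6 to 16.3 CPM in DSS+CA, groups that did not overlap (log2 fold change 0.54, SE 0.259, adjusted p = 0.67 in edgeR). Prmt5, which makes symmetric dimethylarginine, was at 0.58 (SE 0.277, adjusted p = 0.669 in edgeR). Prmt1, the main maker of asymmetric dimethylarginine, was at 0.47 (SE 0.428) with overlapping groups. Without DSS 2, DSS 3 and DSS+CA 3, Prmt5 (0.81) and Prmt7 (0.96) were called higher in edgeR, at adjusted p = 0.0425 and 0.0295. For both genes that fit leaves out the highest DSS library, DSS 3, and the lowest DSS+CA library, DSS+CA 3. It called 6.61% of all tested genes.

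No gene for the supply of glutamate, ornithine and proline was called. Of 8 tested genes 3 lay above 0 and 5 below, with a median of -0.06. Nags, whose product activates the Cps1 enzyme, was at -0.13 (SE 0.346) and changed sign without DSS 3 (0.22). Aldh18a1, which makes pyrroline carboxylate from glutamate, was at 0.15 (SE 0.336), and at -0.05 without DSS 2. Glud1, glutamate dehydrogenase, had the smallest p-value of the group, at 0.30 (SE 0.279, adjusted p = 0.935 in edgeR). Pycr1, a pyrroline carboxylate reductase, fell below the filter with 184 and 199 counts.

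**Figure D5:**
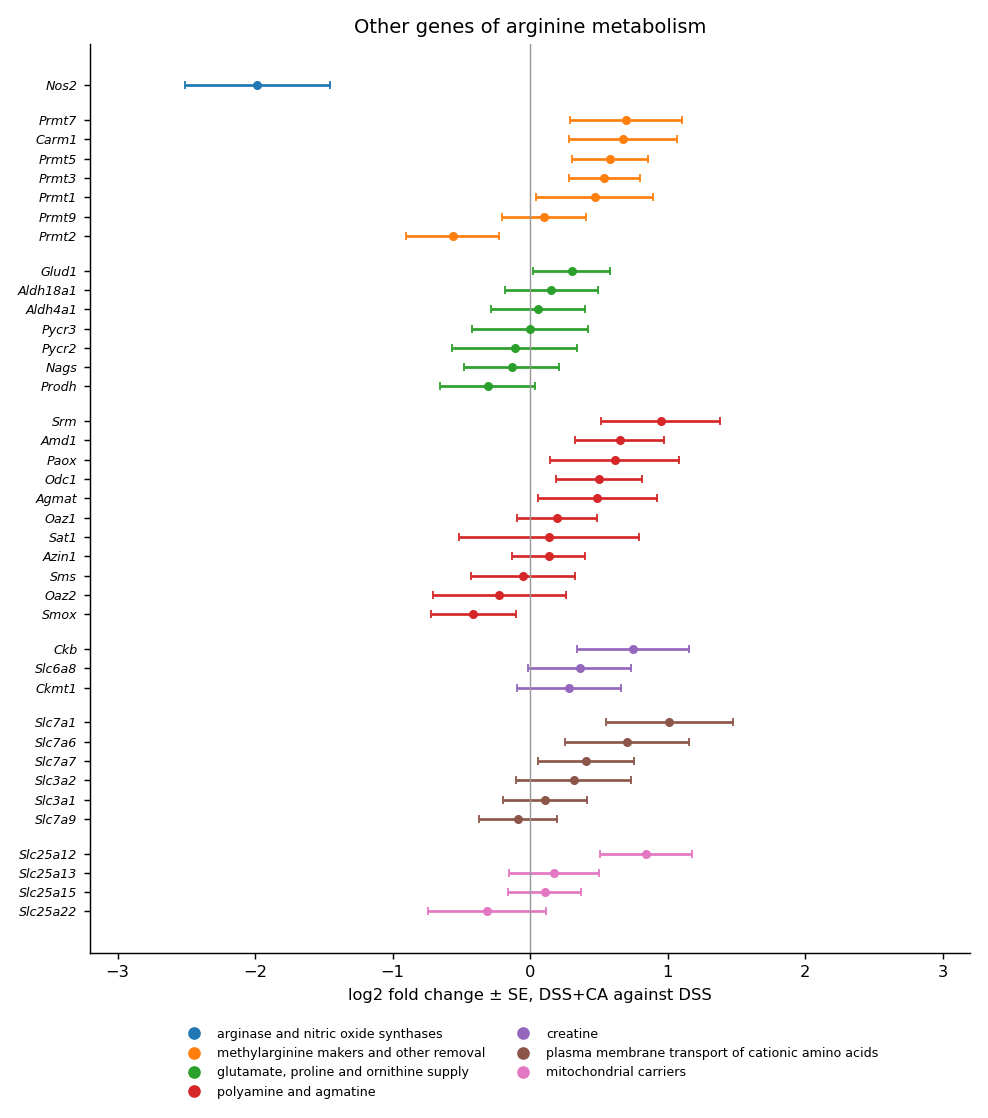
Log2 fold change of DSS+CA against DSS, with bars of 1 SE, for 39 of the 40 other genes of arginine metabolism that passed the filter, coloured by role. Of these 28 lie above 0 and 11 below, Nos2 is the furthest from 0 at -1.98, and none passed the adjusted threshold in edgeR.

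Genes of polyamine metabolism, whose entry step uses the ornithine released by arginase, lay above 0 in 8 of 11, with none called. The list holds genes of synthesis, of its control and of breakdown, so the count is not one of synthesis genes. Srm, spermidine synthase, had a log2 fold change of 0.95 (SE 0.434), with DSS at 4.88 to 16.4 CPM and DSS+CA at 8.08 to 24.4 CPM, and Amd1, which makes decarboxylated S-adenosylmethionine, was at 0.65 (SE 0.325). Odc1, ornithine decarboxylase, the entry step, stood at 130, 123, 260 and 152 CPM in DSS 1 to 4 and at 243, 247, 193 and 257 CPM in DSS+CA 1 to 4, overlapping because of DSS 3. In the fit without DSS 2, DSS 3 and DSS+CA 3, edgeR called Srm (1.26, adjusted p = 0.0174) and Odc1 (0.79, adjusted p = 0.0418) higher. For both genes DSS 2 and DSS 3 were the lowest and the highest DSS libraries, and DSS+CA 3 was the lowest of its group. Leaving them out thus removes the overlap, and that fit called 6.61% of all tested genes.

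Creatine genes had the 3 tested members above 0. Ckb, the brain-type creatine kinase, which the gut epithelium also expresses, was at 0.75 (SE 0.407), and at 1.09 without DSS 2, DSS 3 and DSS+CA 3, where edgeR called it (adjusted p = 0.0242). For Ckb too, DSS 2 and DSS 3 were the lowest and the highest DSS libraries and DSS+CA 3 the lowest of its group. That fit called 6.61% of all tested genes. The creatine transporter gene Slc6a8 was at 0.36 (SE 0.375).

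Of 6 tested transporters of cationic amino acids at the cell surface 5 lay above 0. Slc7a1, the transporter CAT-1 that brings arginine into the cell, stood at 65.3, 17.3, 29.4 and 42.8 CPM in DSS 1 to 4 and at 110, 90.3, 32.3 and 79.7 CPM in DSS+CA 1 to 4. The groups overlapped through DSS+CA 3, and the log2 fold change was 1.01 (SE 0.458, adjusted p = 0.636 in edgeR). Slc7a6, which exchanges arginine for neutral amino acids, was at 0.70 (SE 0.449).

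Of the mitochondrial carriers, Slc25a15, which exchanges ornithine and citrulline across the inner membrane and so serves Otc, was at 235 ± 37.9 and 253 ± 20.5 CPM (SD, n = 4 each; log2 fold change 0.11, SE 0.266). Slc25a12, the aspartate and glutamate carrier, was at 0.84 (SE 0.333, adjusted p = 0.504 in edgeR), with DSS at 4.04 to 10.1 CPM and DSS+CA at 9.61 to 14.6 CPM. Slc25a22, a glutamate carrier, was at -0.32 (SE 0.428), and at 0.03 without DSS 1.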

How the data were processed

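RNA of crypts was sequenced in 8 libraries, 4 per group, from 200 ng of total RNA with a stranded kit, per the labels' protocols. The authors deposited a raw count and an FPKM value for 34745 genes per library, per the file headers. The submitters' processing notes name HISAT2, StringTie, GRCm38 and mm10, with no version. Which tool counted reads, and whether by strand, is not given in the sources used here.

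Genes with a deposited FPKM of at least 1 in at least 4 libraries, 9913, were tested on the deposited counts with edgeR 4.0.16 (quasi-likelihood, two-sided, TMM scaling, group as the only term; limma 3.58.1, R 4.3.3). Adjusted p is Benjamini-Hochberg's over those 9913 genes, with a threshold of 0.05. Log2 fold changes are DSS+CA against DSS, with SE as the fold change over the square root of the F statistic, and CPM is scaled by TMM. Genes under the filter were read from a fit of all genes with a count. The code was tested on simulated data.

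The genes and lists were chosen with earlier results of these data known. The pathway genes named were those past the threshold, the 2 with the smallest p in each role group, and 11 set by name; Prmt7 was named after its value was seen, and 1 gene is not reported here. Alternatives were DESeq2 1.42.0 (its size factors in edgeR, and its Wald test), upper quartile scaling, limma-voom, other filters, a replicate block, a gene length offset, no mitochondrial genes, each library left out, and 3 libraries left out. Strands and overlaps are from GENCODE M21, promoters from RefSeq (GRCm38.p6).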

Additional observations from a re-analysis of the deposited data

Results flagged for a closer look

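A library was taken as far from its group when its gap to the nearest of the other 3 was too large a part of the group's range by Dixon's criterion, which chance meets in about 1 in 20 groups; 3 of the 54 groups checked had such a library. Otc was at 278 CPM in DSS+CA 3, where the other DSS+CA libraries lay between 122 and 146 CPM. Oat was at 763 CPM in DSS 2, above the 634 to 646 CPM of the other DSS libraries. Aldh18a1 was at 61.1 CPM in DSS 2, below the 126 to 136 CPM of the others.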

How the results depend on the processing

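Directions of Ddah1, Cps1, Oat and Arg2 were the same under all 18 alternatives run. Over all genes 13 were called, and 27 with DESeq2 size factors, 220 with DESeq2, 34 with limma-voom, 79 with no filter, 61 with the gene length offset, 27 without mitochondrial genes, 655 without DSS 2, DSS 3 and DSS+CA 3, and 4 to 84 with each library left out, the most without DSS+CA 3. Each of those 7 settings, and leaving out DSS+CA 3, called 1 of the 9 genes, Ddah1, against 0 in the design used (0 to 1 with each library left out). The adjusted p of Ddah1 in edgeR was 0.0502 in the design used and 0.0498 without mitochondrial genes, on either side of the threshold. It was 0.0548 with upper quartile scaling and 0.0513 with edgeR's own expression filter, which did not call it. With each library left out it lay between 0.0392 (without DSS+CA 3) and 0.227 (without DSS 4). Nothing is read from these calls, since the 9 genes were chosen on this contrast. Why the settings differ was not tested. Of the other pathway genes 0 were called, but 1 with DESeq2, Nos2, and 6 without the 3 libraries, Nos2, Prmt5, Prmt7, Odc1, Srm and Ckb; with each library left out the count was 0. The median log2 fold change of the 6 tested genes, 0.17, was 0.33 without the 3 libraries and 0.022 to 0.25 with each left out, the lowest without DSS 1.

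With each library left out, 5 log2 fold changes changed sign: Slc25a22 ran from -0.56 to 0.031 (above 0 without DSS 1), Otc from -0.64 to 0.042 (above 0 without DSS 2), Aldh18a1 from -0.054 (without DSS 2) to 0.32, Asl from -0.29 to 0.11 and Nags from -0.34 to 0.22 (both above 0 without DSS 3). Without the 3 libraries Asl (0.34) and Nags (0.084) reversed too. Deviations from the group means of same-numbered libraries correlated over genes at 0.77, -0.37, 0.10 and 0.22, the first being the highest of all pairs. DSS 2 was nearest to DSS+CA 3 (0.76), and both were among the libraries of shortest counted genes. Such shared traits enter these correlations, so they cannot settle whether same-numbered libraries were paired. With the replicate block 65 genes were called, 1 of the 9 (Ddah1) and 1 pathway gene (Nos2). Counts of 2 to 57 per library limit Gatm, Ddah2 and Ass1.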
